A study of Mus musculus with 6 samples.

Results

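The genes described here encode 38 cytokine, chemokine, sphingosine-1-phosphate and angiopoietin receptors, measured by RNA sequencing in sorted haematopoietic stem cells (HSCs), the rare bone marrow cells that sustain all blood lineages. They were chosen by a list of names, not by a threshold on measured values, and all 38 were found among the 35275 genes of an FPKM table, in which reads are scaled by gene length and library depth. Read counts were present for 37 of them and 36 had enough reads to be tested. The 6 libraries came from about 2000 cells each, 3 from adult Ramp1+/+ mice (wild type) and 3 from adult mice whose genotype is labelled Ramp-/- and whose titles name a Ramp1 mutation (mutant). Ramp1 is the accessory subunit of the receptor for the neuropeptide CGRP, and the series title links nociceptive nerves to the mobilization of stem cells. What the allele deletes, in which cells, and whether every library stems from its own animal are not in the labels, so the p-values cover only the spread among these 6 libraries, which may be technical.

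HSCs are held in the marrow by receptors that read signals of the niche, and mobilization is their release into blood. CXCR4 binds the chemokine CXCL12 made by niche cells and retains HSCs, while the receptor for G-CSF, the cytokine used to mobilize stem cells, acts largely through other marrow cells that then weaken this hold. Most cytokine receptors pair a chain specific to the ligand with a shared chain and signal through JAK kinases and STAT factors, so the level of each chain bears on what a cell can sense.

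The libraries held between 22796771 and 26734561 reads counted in genes. Ramp1 itself had 91.4, 88.3 and 91.0 FPKM in wild-type replicates 1, 2 and 3 and 3.53, 2.65 and 1.35 FPKM in the mutant ones, so the groups carried their labels. All 12 HSC markers examined, among them Kit, Procr and Slamf1, were present in every library, with summed levels of 1328 to 1594 FPKM (wild type) and 1354 to 1696 FPKM (mutant). Replicate 1 of each group held 6527 and 6137 reads of 4 Y-linked genes against at most 2 elsewhere, so a library of male cells stood in each group. Neutrophil markers varied most: their sum over 12 genes was 57.6, 312 and 859 FPKM in wild-type replicates 1 to 3 and 207, 859 and 1178 FPKM in mutant replicates 1 to 3. In such bulk samples, fewer cells of a type and less RNA per cell cannot be told apart.

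The HSCs carried transcripts of most of these receptors, at widely different levels. The mean over the 6 libraries was at least 10 FPKM for 22 of the 38 genes, from 1 to 10 FPKM for 9 and under 1 FPKM for 7. Ifngr1, the ligand-binding chain of the interferon gamma receptor, was highest at 109 FPKM, above 95.3% of all tested genes. The tumour necrosis factor receptor gene Tnfrsf1a followed at 66.4 FPKM, then Tie1 at 62.8, Il21r at 54.8 and Tnfrsf1b at 49.6 FPKM. Tnfrsf1a, Tie1 and Il21r are neighbours in this order whose ranges over libraries overlapped, 56.5 to 73.8, 51.7 to 79.8 and 46.2 to 63.6 FPKM. Cxcr4 stood in the middle of the list, rank 21, at 10.5 FPKM. The lowest were Osmr at 0.241, Lifr at 0.0867 and Cx3cr1 at 0.0291 FPKM, the last with 0 to 7 reads in a library.

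**Figure D1:**
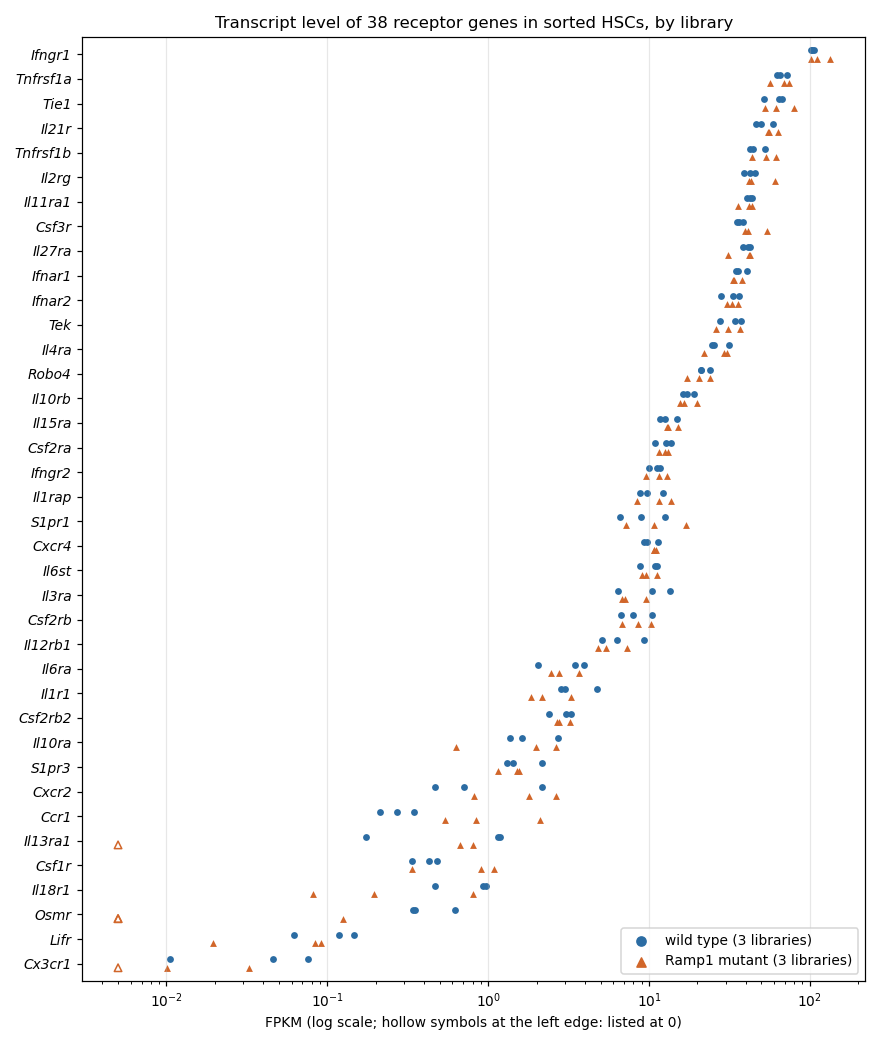
FPKM on a log axis for each of the 38 receptor genes, ordered by their mean, with circles for the 3 wild-type and triangles for the 3 mutant libraries and hollow symbols for values listed at 0. Levels ran from 109 FPKM for Ifngr1 to 0.0291 FPKM for Cx3cr1, and the symbols of both genotypes overlapped for all genes but Csf3r, Ccr1 and Osmr.

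No receptor gene passed an adjusted p of 0.05 (edgeR quasi-likelihood test with Benjamini-Hochberg adjustment over 14443 genes; lowest adjusted p among the receptors 0.999), while 0.0208% of all tested genes did. At an unadjusted p under 0.05, 2 of 36 were called, Csf3r and Ccr1, both with higher values in mutant cells; 3.99% of all tested genes were called by this rule, with 2.28% higher and 1.7% lower. DESeq2 on the same counts also called 0 at its adjusted and 2 at its unadjusted threshold. Over the 14443 genes it called 21 higher and 23 lower at the adjusted and 683 at the unadjusted threshold. The 3 mutant libraries lay entirely above the wild-type ones for the same 2 of the 36 tested genes, where 10.3% of all tested genes had groups that did not overlap, 5.99% with the mutant libraries higher. Higher values in mutant cells were found for 17 receptors and lower values for 19, with a median log2 fold change of -0.0014 against 0.0003 over all genes tested. The receptors called at the unadjusted threshold were thus a share near the background.

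The precision of these comparisons differed by level. The 95% interval of the fold change, computed gene by gene without adjustment, stayed within 1.5-fold either way for 23 of the 36 genes and within 2-fold for 26. Of the 22 genes with at least 10 FPKM, 21 stayed within 1.5-fold, the exception being S1pr1. For Cxcr2, Il18r1, Il13ra1 and Lifr the intervals were wide enough to hold differences of several fold.

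**Figure D2:**
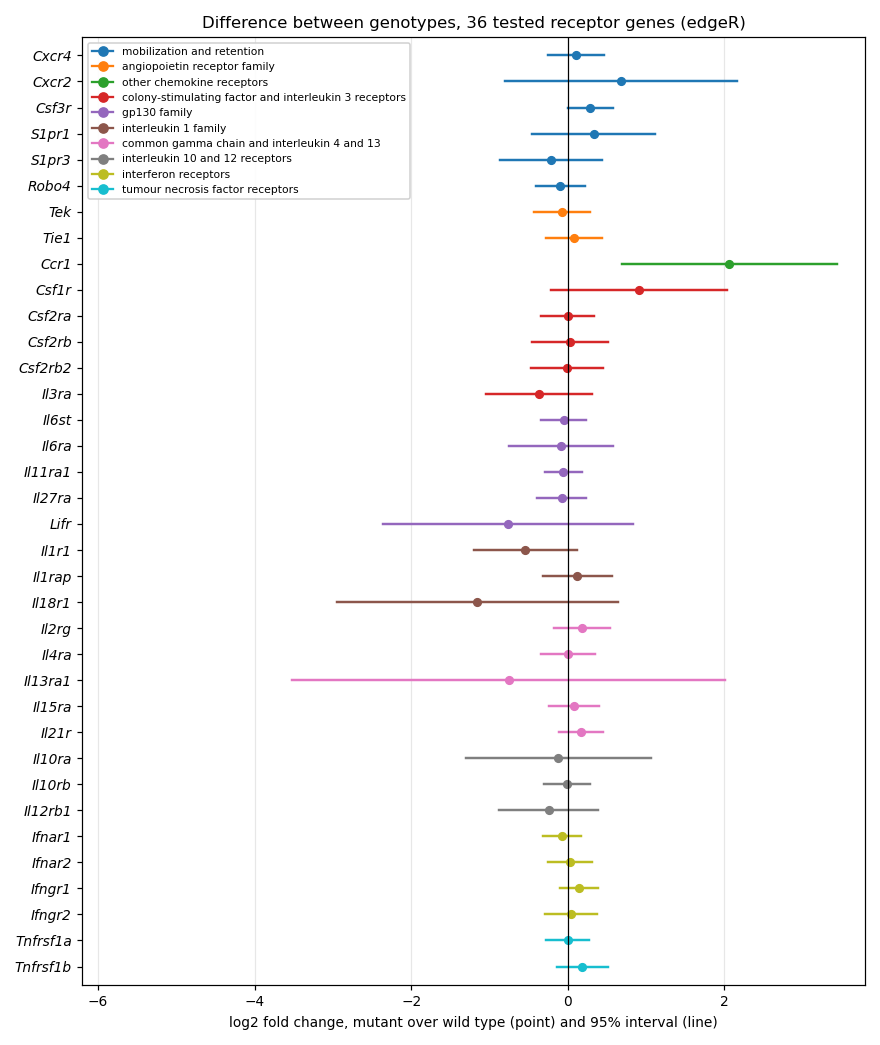
Log2 fold change of mutant over wild type (points) with its 95% interval (lines) for the 36 tested receptor genes, coloured by family. Only the intervals of Csf3r and Ccr1 lie off 0, without adjustment for the number of genes, and the widest belong to genes with under 2 FPKM.

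Among the receptors that govern mobilization, Csf3r, the G-CSF receptor (ENSMUSG00000028859, mm10 chromosome 4, 126024550 to 126044440), was the most abundant. It had 38.4, 35.1 and 36.5 FPKM in wild-type replicates 1, 2 and 3 and 53.9, 39.3 and 41.5 FPKM in mutant replicates 1, 2 and 3. All mutant libraries were above all wild-type libraries, by a small margin except in mutant replicate 1. The log2 fold change was 0.29 (SE 0.12; 95% interval 0.01 to 0.57; unadjusted p = 0.0469, adjusted p = 0.999, edgeR). It missed the unadjusted threshold without any 1 of wild-type replicates 1, 2 and 3 or without mutant replicate 1 (0.16; edgeR, unadjusted p = 0.158), and passed it in 8 of 16 alternative settings. Neutrophils also express Csf3r, and its highest value stood in mutant replicate 1, whose neutrophil marker sum of 207 FPKM was the lowest of the mutant group; the part of such cells in the Csf3r values was not tested. In the authors' deposited table its log2 fold change is 0.28 with an adjusted p of 0.9998.

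Cxcr4 (ENSMUSG00000045382, chromosome 1, 128588199 to 128592293), the CXCL12 receptor, was among the steadiest genes of the list. It had 11.4, 9.68 and 9.34 FPKM in wild-type and 10.8, 10.7 and 11.1 FPKM in mutant libraries. The mutant values lay inside the wild-type range, with a log2 fold change of 0.10 (SE 0.16; 95% interval -0.26 to 0.46; edgeR, unadjusted p = 0.522). Cxcr2 (chromosome 1, 74153989 to 74161246), a receptor of neutrophil-attracting chemokines, was near 1 FPKM and uneven. It had 0.466, 0.712 and 2.15 FPKM in wild-type and 0.821, 2.64 and 1.80 FPKM in mutant libraries. The groups overlapped and the log2 fold change of 0.68 (SE 0.64; edgeR, unadjusted p = 0.321) did not pass; without wild-type replicate 3 it was 1.57 (edgeR, unadjusted p = 0.0323). With wild-type replicate 1 or 2 left out it was 0.31 or 0.46, and with replicate 1 or 2 of the mutant left out it was 1.03 or 0.26, so single libraries moved it in both directions. In both groups the library with the lowest Cxcr2 value, replicate 1, also had the lowest sum of neutrophil markers. In the mutant group the highest Cxcr2 value was in replicate 2 and the highest such sum in replicate 3. The part of such cells in the Cxcr2 values was not tested.

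S1pr1 (chromosome 3, 115710433 to 115715055), through which cells follow sphingosine-1-phosphate into blood and lymph, differed more between libraries of a group than between genotypes. It had 8.89, 6.65 and 12.6 FPKM in wild-type and 7.24, 10.8 and 17.1 FPKM in mutant libraries. Its within-group SD of 0.55 on the log2 CPM scale exceeded the 0.11 of Cxcr4, and its log2 fold change of 0.33 (SE 0.34; edgeR, unadjusted p = 0.359) became -0.06 with mutant replicate 3 left out and 0.60 with mutant replicate 1 left out. Leaving out wild-type replicate 2 or 3 gave 0.15 or 0.59. S1pr3, another receptor of this lipid, was low in all libraries, at 1.16 to 2.18 FPKM (log2 fold change -0.22, SE 0.28). Robo4, a Slit receptor with a role in HSC lodging in the niche, had 17.3 to 24.1 FPKM and a log2 fold change of -0.09 (SE 0.13).

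The stretches just before the start sites of Cxcr4, Csf3r and Ccr1 are shown because these are the retention receptor and the only receptors with an unadjusted call. The window searched was the 250 bases up to the RefSeq start (GRCm38.p6), printed 5′ to 3′ on the strand of the gene with matches to 4 motifs in capitals. For Csf3r the RefSeq start lies 109 bases inside the gene span of the deposited table, and only the 141 bases before that span are printed. They lie at chr1:128592300-128592549 (minus strand), chr4:126024409-126024549 (plus strand) and chr9:123968693-123968942 (minus strand).
Cxcr4: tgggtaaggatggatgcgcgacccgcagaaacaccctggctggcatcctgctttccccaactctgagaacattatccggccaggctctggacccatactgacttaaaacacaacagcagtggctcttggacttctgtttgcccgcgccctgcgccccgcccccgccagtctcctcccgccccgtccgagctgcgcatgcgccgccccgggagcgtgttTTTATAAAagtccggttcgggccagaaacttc
Csf3r: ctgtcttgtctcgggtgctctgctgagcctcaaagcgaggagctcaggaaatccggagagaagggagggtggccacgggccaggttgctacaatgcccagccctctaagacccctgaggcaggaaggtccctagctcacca
Ccr1: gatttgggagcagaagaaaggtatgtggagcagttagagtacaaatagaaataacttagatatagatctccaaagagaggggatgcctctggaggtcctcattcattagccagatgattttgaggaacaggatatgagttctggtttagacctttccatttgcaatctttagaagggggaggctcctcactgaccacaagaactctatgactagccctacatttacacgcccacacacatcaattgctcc
The motifs were searched on both strands and chosen after the sequences had been read. PU.1 was searched as GAGGAAG and the cyclic AMP response element by its core TGACG. STAT factors were searched as TTCNNNGAA and the TATA box as TATAAA. Cxcr4 held TATAAA 30 to 25 bases before its start, overlapping a match on the other strand. Csf3r held GAGGAAG 86 to 80 bases before its RefSeq start, which is inside the deposited gene span and outside the letters printed, and Ccr1 held none of the 4. Entries were found for 31 of the 38 receptor genes. Of these, 8 held GAGGAAG (25.8%, against 12% of 27025 genes), 5 held TTCNNNGAA (16.1% against 8.13%), 5 held TGACG (16.1% against 19.8%) and 1 held TATAAA (3.23% against 14.3%). These are matches of letters and do not show that a factor binds there.

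The angiopoietin receptors, which tie HSC quiescence to signals of the niche, were well expressed. Tek (chromosome 4, 94739289 to 94874976), which encodes the receptor TIE2, had 27.5, 34.3 and 37.2 FPKM in wild-type and 37.1, 26.1 and 31.0 FPKM in mutant libraries. The ranges nearly coincided, and the log2 fold change was -0.07 (SE 0.15; 95% interval -0.43 to 0.28; edgeR, unadjusted p = 0.648). Its partner Tie1 had 66.8, 51.7 and 64.7 FPKM against 79.8, 61.6 and 52.4 FPKM (log2 fold change 0.08, SE 0.16; edgeR, unadjusted p = 0.622). Tek, Tie1 and Robo4 are also known from endothelial cells, whose 12 markers summed to 53.7 to 68.7 FPKM in wild-type and 49.9 to 60.6 FPKM in mutant libraries. All 12 were above 0 in some library, and 4 stayed under 1 FPKM in all. Egfl7 and Emcn made up most of the sum, at 26.6 to 32.9 and 9.99 to 15.8 FPKM, followed by Plvap at 0.196 to 16.1, Cldn5 at 1.48 to 7.08 and Kdr at 1.32 to 3.76 FPKM. Cdh5 had 0.0880 to 0.454 FPKM. The means of Egfl7 and Emcn were 28.2 and 12.1 FPKM in wild-type and 30.1 and 14.4 FPKM in mutant libraries. Those of Plvap, Cldn5 and Kdr were 8.37, 4.71 and 2.97 FPKM in wild-type and 4.14, 2.67 and 1.74 FPKM in mutant libraries. The remaining markers, all of lower level, also had lower means in mutant libraries. The part of such cells in the Tek, Tie1 and Robo4 values was not tested.

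Ccr1 (ENSMUSG00000025804, chromosome 9, 123962126 to 123968692), a receptor of inflammatory chemokines such as CCL3, had the largest fold change of the tested receptors at a low level. It had 0.348, 0.213 and 0.272 FPKM in wild-type replicates 1, 2 and 3, from 25, 15 and 18 reads. The mutant replicates had 0.542, 2.09 and 0.840 FPKM, from 35, 158 and 59 reads. All mutant values lay above all wild-type values, and mutant replicate 2 stood well above the rest. The log2 fold change was 2.06 (SE 0.59; 95% interval 0.69 to 3.44; unadjusted p = 0.00854, adjusted p = 0.999, edgeR). Without mutant replicate 2 it was 1.32, and the unadjusted threshold was passed in all 16 alternative settings, with log2 fold changes from 0.69 to 2.60 and adjusted p-values from 0.245 upward. In the authors' deposited table the log2 fold change of Ccr1 is 2.07 with an adjusted p of 0.262. Myeloid cells express Ccr1: mutant replicates 2 and 3 had neutrophil marker sums of 859 and 1178 FPKM, and wild-type replicate 3 had 859 FPKM with a Ccr1 level of 0.272 FPKM. The part of such cells in the Ccr1 values was not tested. Cx3cr1, the fractalkine receptor of monocytes, was too low to test.

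**Figure D3:**
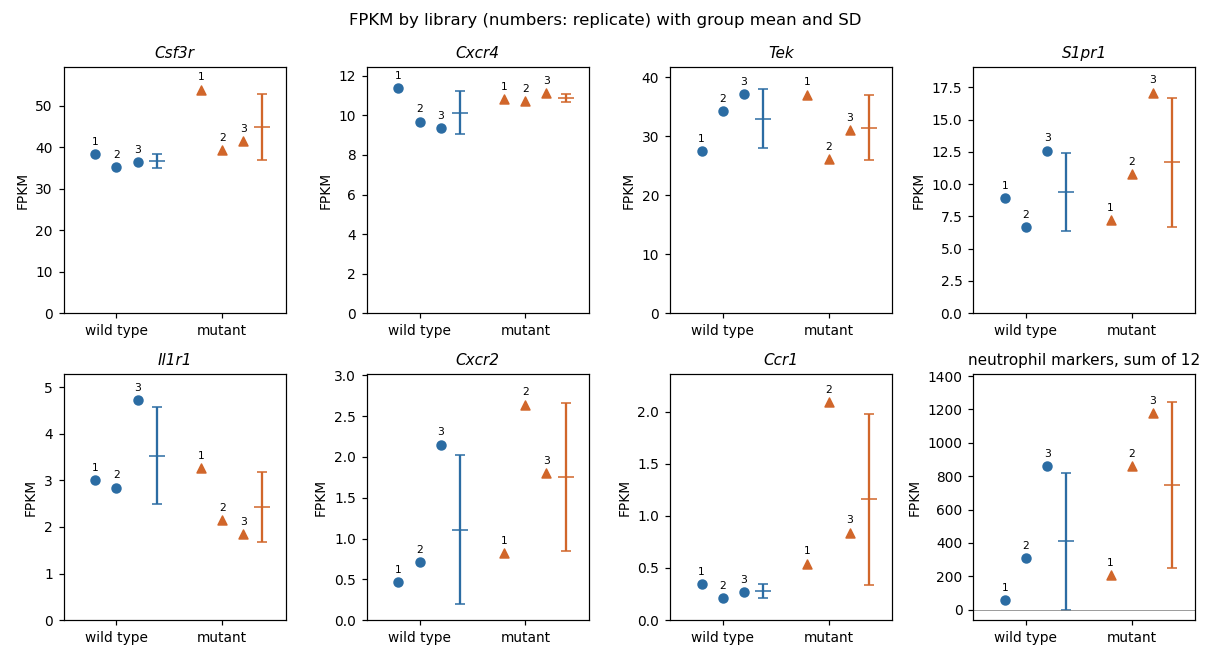
FPKM by library for 7 receptor genes and for the sum of 12 neutrophil markers, with the replicate number above each point and the group mean and SD as a bar; each panel has its own linear axis that includes 0. Csf3r and Ccr1 are higher in all 3 mutant libraries, the Cxcr4 values of the mutant lie inside the wild-type range, and the neutrophil sum ranges from 57.6 to 1178 FPKM.

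Of the 5 colony-stimulating factor and interleukin 3 receptors, 2 had higher and 3 lower values in mutant cells. Of these, 0 passed the unadjusted threshold in edgeR, where 3.99% of all tested genes passed it. Csf2ra, the ligand-binding chain for GM-CSF, had 12.5 ± 1.44 FPKM (wild type) and 12.5 ± 0.828 FPKM (mutant; SD, n = 3 each; interval of the log2 fold change -0.34 to 0.34). Csf2rb, the beta chain shared by the GM-CSF, interleukin 3 and interleukin 5 receptors, had 8.40 ± 1.92 and 8.51 ± 1.74 FPKM. Il3ra had 10.5, 6.46 and 13.4 FPKM in wild-type and 7.11, 6.79 and 9.60 FPKM in mutant libraries. The groups overlapped, with a log2 fold change of -0.36 (SE 0.29; edgeR, unadjusted p = 0.251), which was -0.59 with wild-type replicate 2 left out, -0.55 with mutant replicate 3 left out and -0.11 with wild-type replicate 3 left out. Csf1r, the macrophage growth factor receptor, was low at 0.478, 0.427 and 0.337 FPKM in wild-type and 0.336, 1.09 and 0.900 FPKM in mutant libraries (log2 fold change 0.91, SE 0.49). It was 1.28 without mutant replicate 1 (edgeR, unadjusted p = 0.00973, adjusted p = 0.820), 1.39 without replicate 1 of both genotypes (edgeR, unadjusted p = 0.0185) and 0.59 without mutant replicate 2. As for Ccr1, mutant replicates 2 and 3 had the highest Csf1r values. The monocyte and macrophage marker sum, most of it Lyz2, was 502 to 578 FPKM in wild-type and 503 to 635 FPKM in mutant libraries, with mutant replicate 2 highest; its part in the Csf1r values was not tested.

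Csf2rb2, a beta chain found in mice that serves interleukin 3, had 2.90 ± 0.449 and 2.89 ± 0.305 FPKM and lies 20.4 kb from Csf2rb on chromosome 15. Their coding sequences (GENCODE M21) were 95.2% identical over 2631 aligned bases, and 26.0% of the 50-base windows of Csf2rb occurred unchanged in Csf2rb2. The longest stretch shared without a difference had 242 bases, coding bases 2083 to 2324 of both genes. It is printed because a read that lies wholly inside it matches both genes.
Csf2rb and Csf2rb2: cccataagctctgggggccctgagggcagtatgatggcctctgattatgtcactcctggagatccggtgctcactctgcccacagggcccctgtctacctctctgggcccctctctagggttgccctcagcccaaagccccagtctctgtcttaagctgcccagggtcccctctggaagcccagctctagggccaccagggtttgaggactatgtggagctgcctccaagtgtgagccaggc
No source used here says how the authors' counting treated such reads, so the split between both genes is uncertain.

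The receptors of the interleukin 6 family share the chain gp130, encoded by Il6st. Its level was 10.3 ± 1.33 FPKM in the wild type and 9.98 ± 1.10 FPKM in the mutant. Of its partners, Il11ra1 had 42.1 ± 1.43 and 40.5 ± 4.14 FPKM and Il27ra, the interleukin 27 receptor, 40.8 ± 2.29 and 38.6 ± 6.64 FPKM. Il6ra had only 3.15 ± 0.978 and 2.97 ± 0.632 FPKM. The 5 tested members all had lower values in mutant cells, by a median of -0.08. Of these, 0 passed the unadjusted or the adjusted threshold in edgeR, where 3.99% and 0.0208% of all tested genes did. Osmr, the oncostatin M receptor, had 0.625, 0.351 and 0.343 FPKM in wild-type replicates and was listed at 0, 0 and 0.125 FPKM in mutant replicates 1, 2 and 3. It has no counts because the count table holds only genes with reads in mutant replicate 1 or 2, so it was not tested. Lifr stayed under 0.15 FPKM in every library.

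In the interleukin 1 family, Il1r1 (chromosome 1, 40225080 to 40316198), the signalling receptor for interleukin 1, had 3.01, 2.85 and 4.73 FPKM in wild-type and 3.27, 2.15 and 1.85 FPKM in mutant libraries. Mutant replicates 2 and 3 were the lowest, while replicate 1 overlapped wild type. The log2 fold change was -0.54 (SE 0.28, unadjusted p = 0.0942, adjusted p = 0.999, edgeR). It moved to -0.29 without wild-type replicate 3 and to -0.79 without mutant replicate 1 (edgeR, unadjusted p = 0.0259). Its accessory chain Il1rap was higher and had 10.3 ± 1.77 and 11.2 ± 2.60 FPKM. Il18r1, the interleukin 18 receptor, which lies 149 kb from Il1r1, had 0.465, 0.928 and 0.967 FPKM against 0.802, 0.0810 and 0.194 FPKM (log2 fold change -1.15, SE 0.77). The value rested on single libraries: it was -2.49 without mutant replicate 1 (edgeR, unadjusted p = 0.00550, adjusted p = 0.687), -2.77 without replicate 1 of both genotypes (edgeR, unadjusted p = 0.00438, adjusted p = 0.9997) and -0.68 without mutant replicate 2. Il1r1, Il18r1, Cxcr2 and Cxcr4 share chromosome 1 with Ramp1 and start 50.95, 50.71, 17.03 and 37.41 Mb from it.

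Il2rg, the common gamma chain, and its partner Il21r were among the abundant receptors. Il21r had 46.2, 49.6 and 59.2 FPKM in wild-type and 54.8, 55.7 and 63.6 FPKM in mutant libraries (log2 fold change 0.17, SE 0.12; edgeR, unadjusted p = 0.199). Il2rg had 42.6 ± 3.35 and 48.5 ± 10.3 FPKM, its mean in the mutant raised by replicate 1 at 60.3 FPKM. Il4ra, which lies 23.96 kb from Il21r on chromosome 7, had 27.1 ± 3.77 and 27.2 ± 4.54 FPKM, and Il15ra, which presents interleukin 15, had 13.03 ± 1.66 and 13.8 ± 1.27 FPKM. Il13ra1 was erratic, with 109, 110 and 15 reads in wild-type and 0, 80 and 62 reads in mutant libraries. Its lowest libraries, wild-type replicate 3 and mutant replicate 1, also had the lowest endothelial marker sum of their group, 53.7 and 49.9 FPKM. The sums elsewhere were 57.9 and 68.7 FPKM in wild-type and 54.5 and 60.6 FPKM in mutant libraries. Plvap, at 2.34 and 0.196 FPKM, Stab2, Sele, Flt4, Cdh5 and Ptprb were also lowest in these libraries. Egfl7, at 27.5 and 30.7 FPKM, was lowest in neither. Emcn was highest in wild-type replicate 3 and Cldn5 highest in mutant replicate 1. Kdr was not lowest in wild-type replicate 3, nor Flt1 in mutant replicate 1. The part of such cells in the Il13ra1 values was not tested.

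The interferon receptors had the smallest median half-width of the 95% interval among the receptor families, 0.26 on the log2 scale. Ifngr1 had 103, 102 and 106 FPKM in wild-type and 133, 110 and 101 FPKM in mutant libraries (log2 fold change 0.14, SE 0.11; edgeR, unadjusted p = 0.215). Ifnar1, a chain of the type I interferon receptor, had 36.9 ± 3.11 FPKM (wild type) and 35.0 ± 2.41 FPKM (mutant). Ifnar2, the other chain, had 32.5 ± 4.19 and 33.1 ± 2.77 FPKM. Ifngr2, the signalling chain for interferon gamma, had 10.97 ± 0.850 and 11.3 ± 1.73 FPKM. The 4 genes Ifnar2, Il10rb, Ifnar1 and Ifngr2 lie in a row on chromosome 16 between 91372783 and 91565169, with Ifnar2 ending 574 bases before Il10rb begins. Their levels differed although they are neighbours, 32.8, 17.4, 35.9 and 11.2 FPKM over all libraries, and their log2 fold changes were 0.03, -0.01, -0.07 and 0.05. Il10ra had 0.631 to 2.71 FPKM, and Il12rb1, a chain of the interleukin 12 and 23 receptors, had 4.81 to 9.33 FPKM, with overlapping groups for both. Tnfrsf1a, the main signalling receptor for tumour necrosis factor, had 64.9, 62.1 and 72.6 FPKM in wild-type and 68.7, 73.8 and 56.5 FPKM in mutant libraries (log2 fold change -0.0022, SE 0.12; edgeR, unadjusted p = 0.986). Tnfrsf1b had 44.3, 42.4 and 52.5 FPKM against 53.6, 61.2 and 43.4 FPKM (log2 fold change 0.19, SE 0.14; edgeR, unadjusted p = 0.227). The ranges overlapped for both.

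Ratios between related receptor genes were compared within each library, where depth cancels, for 16 pairs. Most pairs are chains of 1 receptor or a receptor and its accessory chain, while Tnfrsf1a and Tnfrsf1b, S1pr1 and S1pr3, and Csf2rb and Csf2rb2 are separate receptors or alternative chains that share a ligand, and Tek and Tie1 are related receptors. Ifngr1 exceeded Ifngr2 by 8.79-fold to 11.6-fold in every library, while Ifnar1 and Ifnar2 stood at 0.979 to 1.24. Il6ra was at 0.233 to 0.351 of Il6st, and Il27ra and Il11ra1 at 3.21 to 4.63 and 3.61 to 4.79 times it, so transcripts of the interleukin 27 and 11 chains outnumbered the shared chain. In 2 of the 16 pairs the genotypes did not overlap. Among all tested genes, taken singly, 10.3% had groups that did not overlap, and no such share was computed for pairs. Il1r1 stood at 0.308, 0.322 and 0.386 of Il1rap in wild-type and at 0.240, 0.255 and 0.160 of it in mutant libraries. Tnfrsf1a stood at 1.46, 1.46 and 1.38 of Tnfrsf1b in wild-type and at 1.28, 1.21 and 1.30 of it in mutant libraries. For both, an exact two-sided permutation test gave p = 0.1, the smallest that 3 against 3 allows, and 0.8 after adjustment over the 16 pairs. These are ratios of transcripts, not of protein at the cell surface.

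**Figure D4:**
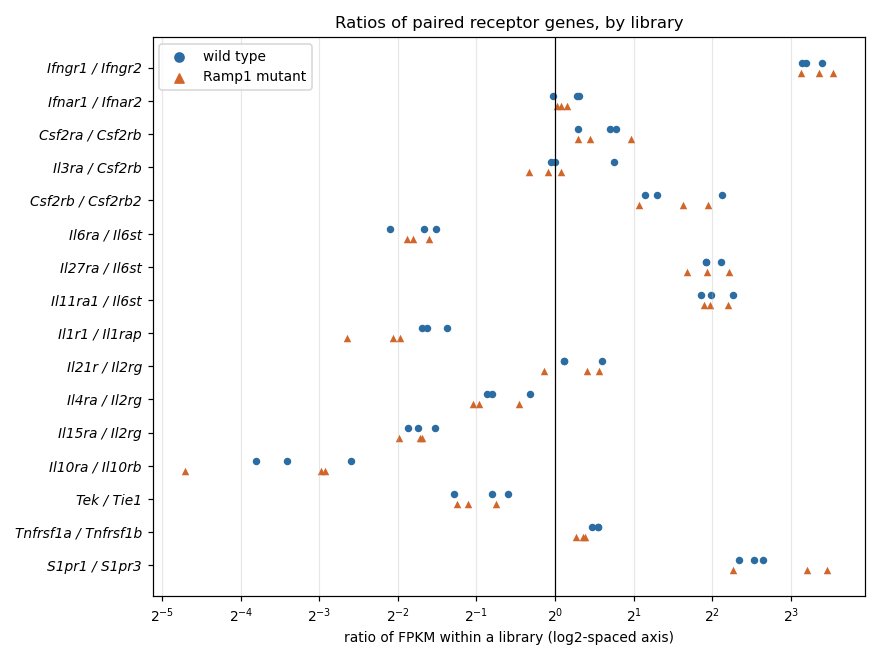
Ratio of the FPKM of paired receptor genes within each library on a log2-spaced axis, with circles for wild-type and triangles for mutant libraries and a line at equal levels. The genotypes do not overlap for Il1r1 over Il1rap and for Tnfrsf1a over Tnfrsf1b (exact two-sided permutation test, p = 0.1, and 0.8 after adjustment, for both). Ifngr1 exceeds Ifngr2 by at least 8.79-fold in every library.

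Genes that act with these receptors were examined by lists. Of 12 JAK and STAT genes tested, 0 passed the unadjusted threshold in edgeR, where 3.99% of all tested genes passed it. Of the 12, 7 were higher and 5 lower, with a median log2 fold change of 0.03. Jak1 had 156 ± 8.43 and 173 ± 22.1 FPKM and Stat3 63.2 ± 3.54 and 66.1 ± 10.3 FPKM. Of 20 feedback inhibitors, 2 passed the unadjusted threshold, both higher, where 2.28% of all tested genes were higher by it, and 0 the adjusted one. Socs3, which STAT3 induces and which blocks G-CSF and interleukin 6 receptors, had 4.33, 3.78 and 3.47 FPKM in wild-type and 4.54, 6.05 and 6.17 FPKM in mutant libraries. All mutant values were above all wild-type values (log2 fold change 0.54, SE 0.22; edgeR, unadjusted p = 0.0383, adjusted p = 0.999). Cish, a target and inhibitor of STAT5 signalling, had 25.9, 16.2 and 19.0 FPKM against 31.6, 23.6 and 33.5 FPKM, with overlapping groups (log2 fold change 0.54, SE 0.19; edgeR, unadjusted p = 0.0226, adjusted p = 0.999). Socs3 missed the unadjusted threshold when replicate 2 or 3 of either genotype was left out. Cish missed it when wild-type replicate 2 or 3, or replicate 1 or 3 of the mutant, was left out.

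Of 23 tested partners of the chemokine and sphingosine-1-phosphate receptors, 1 passed the unadjusted threshold, where 1.7% of all tested genes were lower by it, and 0 the adjusted one. Gna12, a G protein alpha subunit, had 37.96, 34.8 and 23.5 FPKM in wild-type and 22.1, 7.27 and 6.67 FPKM in mutant libraries. Mutant replicate 1 lay close to wild-type replicate 3 (log2 fold change -1.43, SE 0.45; edgeR, unadjusted p = 0.0129, adjusted p = 0.999). Without mutant replicate 1 it was -2.19, without mutant replicate 2 it was -1.18 and without mutant replicate 3 it was -1.15. Gna12 passed the unadjusted threshold in all 16 alternative settings and the adjusted one in none. Its lowest adjusted p was 0.110 (edgeR, without mutant replicate 1). Gnai2, the main G protein subunit of chemokine receptors, had 330 ± 13.4 and 320 ± 9.66 FPKM, and Ackr3, a scavenging receptor for CXCL12, was listed at 0 in every library. None of 24 tested partners of the interleukin 1 and tumour necrosis factor receptors passed the unadjusted threshold in edgeR, where 3.99% of all tested genes passed it.

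Of 41 ligand genes, 22 were tested, 15 higher and 7 lower in mutant cells. Of these, 0 passed the unadjusted threshold in edgeR, where 3.99% of all tested genes passed it. Angpt1, the ligand of TIE2, was abundant in the HSCs themselves, with 226 ± 22.1 and 236 ± 38.9 FPKM, above Tek in every library. Il18 had 39.8 ± 4.90 and 42.2 ± 5.35 FPKM, while Csf3, which encodes G-CSF, was listed at 0 in every library. Cxcl12 had 6.64, 8.38 and 1.45 FPKM in wild-type and 1.79, 2.97 and 4.39 FPKM in mutant libraries, a pattern that overlapped widely. Niche cells make this chemokine, and the part of such cells in the Cxcl12 values was not tested. Among 21 tested cytokine receptors outside the 38, 1 passed the unadjusted threshold, where 2.28% of all tested genes were higher by it, and 0 the adjusted one. Crlf2, the receptor chain for TSLP, had 10.98, 11.01 and 11.4 FPKM in wild-type and 18.4, 13.9 and 13.3 FPKM in mutant libraries (log2 fold change 0.45, SE 0.18; edgeR, unadjusted p = 0.0352, adjusted p = 0.999). It missed the unadjusted threshold without any 1 wild-type replicate or without mutant replicate 1 (0.31). Kit, the receptor for stem cell factor, had 387 ± 69.7 FPKM (wild type) and 368 ± 101 FPKM (mutant).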

How the data were processed

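RNA from sorted HSCs was sequenced in 3 wild-type and 3 mutant libraries, grouped by the titles. Tools named without roles, per the submitters' processing notes, were STAR, CASAVA, DESeq2 and HTSeq 0.6.1, with mm10 as build; annotation release and strand setting are not given in the sources used here. The authors deposited raw read counts per gene, FPKM per gene, signal values scaled by size factors (left unused), log2 fold changes and p-values; per the file headers each column names its library. The count table holds 18368 genes, each with reads in mutant replicate 1 or 2.

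Counts were tested with edgeR 4.0.16 in R 4.3.3 (TMM, filterByExpr, quasi-likelihood F test, two-sided, Benjamini-Hochberg over 14443 genes); the SE is the absolute log2 fold change over the square root of F. The test was checked on simulated counts. The members, lists and rule for named genes were chosen with earlier results of these data known. The rule gave full values for Cxcr4, Csf3r, Cxcr2, S1pr1 and Tek, for receptors with an unadjusted p under 0.05, for those whose groups did not overlap, for the 5 most abundant and for the 5 with the largest absolute log2 fold change, and for pathway genes with an unadjusted p under 0.05. The overlap and fold change parts took only genes with a mean of at least 1 FPKM in 1 group, which Ccr1 reached only in the mutant. This minimum leaves out Osmr from the overlap part and Il18r1, Csf1r, Lifr and Il13ra1 from the fold change part. Subunit pairs and promoter motifs were chosen later, and an NRF1 motif that was also searched is not given. Alternatives were other scalings, no filter, DESeq2 1.42.0, limma 3.58.1 (voom, and log2 FPKM with pseudocounts of 1 and 0.1 on the genes edgeR tested), each library left out, the replicate number as a block, Y-linked reads as a covariate, and both libraries with such reads left out; for the pathway genes they were added after seeing the data. Promoter sequences come from RefSeq (GRCm38.p6) and coding sequences from GENCODE M21, of the same build as mm10.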

Additional observations from a re-analysis of the deposited data

How the results depend on the processing

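No receptor gene passed an adjusted p of 0.05 in the edgeR fit or in any of the 16 alternatives, where the lowest adjusted p was 0.245. The number past the unadjusted threshold in the edgeR fit was 2 higher, Csf3r and Ccr1, and 0 lower, where 576 of 14443 genes passed. Only Ccr1 was higher with limma-voom and with limma on log2(FPKM + 1) or log2(FPKM + 0.1), where 651, 861 and 838 genes passed. With both libraries with Y-linked reads left out, 2 were higher, Ccr1 and Csf1r, and 2 lower, Il1r1 and Il18r1, where 428 of 14569 genes passed. Leaving out 1 library gave 1 to 3 higher and 0 to 2 lower. Only Ccr1 was higher without wild-type replicate 1 or 2, where 405 of 14863 and 583 of 14907 genes passed. Without wild-type replicate 3, Ccr1 and Cxcr2 were higher (540 of 14862 genes). Without mutant replicate 1, Ccr1 and Csf1r were higher and 2, Il1r1 and Il18r1, lower (705 of 14809 genes). Without mutant replicate 2, Ccr1 and Csf3r were higher (473 of 14787 genes). Without mutant replicate 3, the 3 higher were Ccr1, Csf3r and Tnfrsf1b (1120 of 14876 genes). With the replicate number as a block, 2 were higher and 0 lower, where 546 of 14443 genes passed the unadjusted threshold. In that fit 19 of 36 had higher values and the median log2 fold change was 0.002. Same-numbered libraries correlated at 0.138, 0.002 and -0.094 in their deviations from the group means, so the numbers were not taken to pair them. Of 208 values of the 13 named receptors under alternatives, 199 kept their direction. The 9 others belong to Tnfrsf1a, Tie1 and Tek, whose log2 fold changes were within 0.1 of 0, and to S1pr1, at 0.33: Tnfrsf1a was 0.0058 with upper-quartile scaling, Tie1 was -0.018 with both libraries with Y-linked reads left out, and with 1 library left out the log2 fold changes ranged from -0.092 to 0.091 for Tnfrsf1a, -0.079 to 0.200 for Tie1, -0.194 to 0.040 for Tek and -0.059 to 0.596 for S1pr1; the cause was not tested. Receptors under 1 FPKM had intervals that hold differences of several fold; whether read number or spread between libraries sets their width was not tested.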
